A study of Mus musculus with 96 samples.

Results

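The comparison set epidermis of EpiRE mice, whose clock was restored in the epidermis, against epidermis of BRE mice, whose clock was restored in the brain. All 24 EpiRE libraries and all 24 BRE libraries were used, chosen by their titles, which makes 48 of the 96 libraries of the series. EpiRE mice carried Arntl stopFL/stopFL with K14Cre tg/wt and Syt10-Cre wt/wt. BRE mice carried Arntl stopFL/stopFL with K14Cre wt/wt and Syt10-Cre tg/wt. In both, Arntl is held off by a floxed stop that Cre removes. K14Cre is driven by a promoter of basal keratinocytes and Syt10-Cre by the Syt10 gene, which is expressed in the central clock of the brain. The clock site and the Cre allele carried therefore cannot be told apart in these data. RERE mice carried the stop alleles with both Cre transgenes, and WT mice carried Arntl wt/wt with both Cre transgenes. The 24 libraries of each appear below only as side values. All mice were C57BL/6 females of 8 weeks held in constant darkness for 156 to 176 h. Back-skin epidermis was freed with dispase and its polyadenylated RNA sequenced at 6 circadian times (CT), 4 h apart, with 4 mice per genotype and time.

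The core clock is a feedback loop. The BMAL1 protein, encoded by Arntl, pairs with CLOCK or NPAS2 and activates genes through E-boxes, among them the Per, Cry and Nr1d genes, whose products then act as repressors. The REV-ERB receptors (Nr1d1, Nr1d2) repress and the ROR receptors activate a further set, to which Arntl, Npas2 and Cry1 belong. The PAR bZIP factors Dbp, Tef and Hlf activate genes through D-boxes, where Nfil3 represses. In skin this loop runs in keratinocytes, and the brain clock sends it timing cues.

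Levels are log2 RPKM as the authors deposited them (reads scaled for gene length and library size), and differences are EpiRE minus BRE on that log2 scale. Recovered depth was 11.4 to 18.5 M reads per library in EpiRE and 11.1 to 18.6 M in BRE, and 15213 to 16075 genes had reads. Keratinocyte markers led both genotypes: the median sum over 13 basal markers was 14504 RPKM in EpiRE and 13766 RPKM in BRE, while 5 endothelial markers had a median sum of 0.216 RPKM in EpiRE and 0.176 RPKM in BRE. The 7 fibroblast markers summed to 8.23 to 18.5 RPKM in EpiRE and to 14.5 to 32.4 RPKM in BRE. The distance of each library from the mean of its genotype, with CT left in, was compared over the 48 libraries. EpiRE libraries of CT0 replicate 1 and CT8 replicate 1 stood apart. Their distances were 6.67 and 3.83 median absolute deviations above the median distance. Circadian times were read from the BIOCYCLE column names, since the library codes in the JTK_CYCLE tables match no label.

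With CT as a factor, the level of 3737 of 11002 genes (34.0%) differed between EpiRE and BRE by limma at an adjusted p under 0.05. Of these, 2520 (22.9% of the genes tested) were higher in EpiRE and 1217 (11.1%) were lower. Under median-of-ratios scaling the split was 1545 higher and 1727 lower, so 47.2% of the calls were higher in EpiRE, against 67.4% with the deposited scaling. That scaling moved the median difference of all genes to 0.01, against 0.05 as deposited. Without the 2 EpiRE libraries that stood apart, 2936 genes were higher and 1234 lower. Most differences were small, with a median size of 0.18 among the called genes. In 88.2% of the called genes the EpiRE mean was nearer to the WT mean than the BRE mean was, against 74.4% of all genes tested. For RERE in place of WT these shares were 86.5% and 71.6%. A difference of at least 1 was reached by 20 higher and 19 lower genes, and one of at least 0.5 by 103 higher and 124 lower genes.

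**Figure D1:**
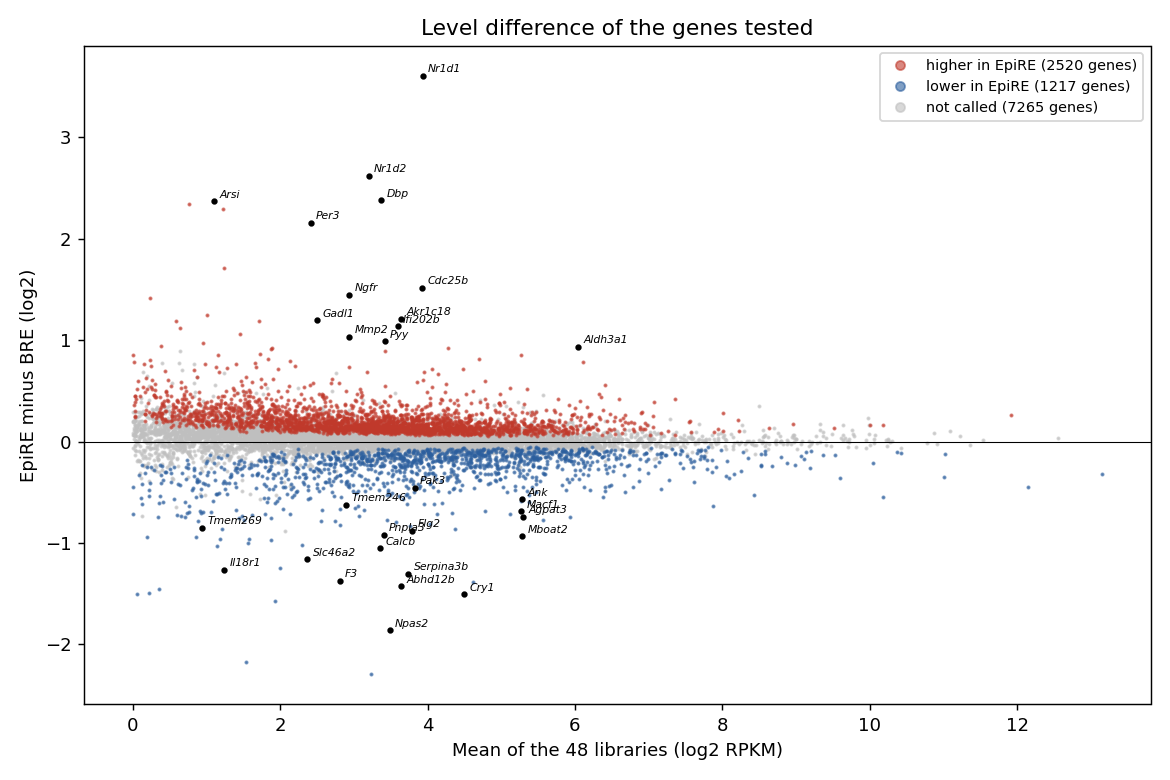
Difference of EpiRE and BRE (log2, y axis) against the mean of the 48 libraries (log2 RPKM, x axis) for the 11002 genes tested. Each dot is a gene, red where it was higher and blue where it was lower in EpiRE, and the named genes in black run up to Nr1d1 at 3.61 and down to Npas2 at -1.86.

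Arntl was the gene engineered in both genotypes. Arntl (ENSMUSG00000055116; chromosome 7, 113207465 to 113314126, mm10) ranged from 3.64 to 4.90 in EpiRE libraries with a median of 4.11, against 3.68 to 4.37 with a median of 3.86 in BRE libraries. The groups overlapped. The mean was 4.16 ± 0.31 in EpiRE and 3.88 ± 0.14 in BRE (SD, n = 24 each), a difference of 0.28 ± 0.06 (SE; limma adjusted p = 0.000463). RERE averaged 3.89 and WT 3.88. The sources used here do not say where in Arntl the stop lies, and reads were summed over all exons, so this level does not check the genotype.

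Of the 18 clock genes tested, 9 were higher in EpiRE, 5 were lower and 4 were not called, against 34.0% called among all genes. The repressors held the largest positive differences. Nr1d1 (ENSMUSG00000020889; chromosome 11, 98767932 to 98775333), which encodes REV-ERB alpha, ranged from 3.56 to 6.69 in EpiRE libraries (median 5.81) and from 1.65 to 3.21 in BRE libraries (median 2.09). Every EpiRE library stood above every BRE library. Its difference of 3.61 ± 0.15 (limma adjusted p = 1e-23) amounted to a 12.2-fold higher level in EpiRE. Its relative Nr1d2 (ENSMUSG00000021775; chromosome 14, 18204054 to 18239127), REV-ERB beta, ranged from 3.06 to 5.09 in EpiRE (median 4.56) and from 1.19 to 2.69 in BRE (median 1.88). These groups did not overlap either, and the difference was 2.62 ± 0.11. Across all genes tested, non-overlapping groups were found for 11 genes (0.100%).

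Per3 (ENSMUSG00000028957; chromosome 4, 151003652 to 151044665), a period gene, had a median of 3.64 in EpiRE (1.20 to 4.56) and 1.32 in BRE (0.86 to 1.87), and was higher by 2.16 ± 0.14. A single EpiRE library, of CT0 replicate 3, lay inside the BRE range. Ciart, which encodes the BMAL1-binding repressor CHRONO, had a low level in both groups, with a mean of 0.95 in EpiRE and -0.47 in BRE, and was higher by 1.41 ± 0.14. Bhlhe40, the repressor DEC1, was higher by 0.85 ± 0.13.

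The other members of the repressor group differed from these. Cry1 (ENSMUSG00000020038; chromosome 10, 85131700 to 85185064), a cryptochrome, ranged from 3.14 to 4.73 in EpiRE (median 3.71) and from 4.58 to 5.49 in BRE (median 5.26). It was 2.84-fold lower in EpiRE (difference -1.50 ± 0.08, limma adjusted p = 5.12e-19). Cry2 averaged 3.88 in EpiRE and 3.84 in BRE and was not called (difference 0.04 ± 0.05, adjusted p = 0.614). Per1 and Per2 were not called either, with differences of 0.36 ± 0.17 (limma adjusted p = 0.0978) and 0.26 ± 0.21 (adjusted p = 0.340). Their libraries spread widely in both genotypes: Per2 ran from 0.07 to 3.69 in EpiRE and from 0.95 to 3.43 in BRE.

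The PAR bZIP factors were higher in EpiRE, all 3 of them. Dbp (ENSMUSG00000059824; chromosome 7, 45705088 to 45710203) had a median of 4.84 in EpiRE (1.34 to 5.86) and 2.15 in BRE (1.73 to 2.56), a difference of 2.38 ± 0.21 (limma adjusted p = 2.16e-12). In 1 EpiRE library it lay below every BRE library and in 1 further library inside their range. Tef was higher by 0.81 ± 0.10 and Hlf by 0.37 ± 0.06. Their antagonist Nfil3 was lower, with means of 3.35 in EpiRE and 3.88 in BRE (difference -0.54 ± 0.18, adjusted p = 0.0188). The Nfil3 call was lost without replicate 3 (adjusted p = 0.0750) and without replicate 4 (adjusted p = 0.144), each by limma on the remaining libraries.

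Among the activators, Npas2 (ENSMUSG00000026077; chromosome 1, 39193731 to 39363236), the alternative partner of BMAL1, ranged from 1.81 to 4.17 in EpiRE (median 2.38) and from 3.68 to 4.64 in BRE (median 4.45). It was 3.63-fold lower in EpiRE (difference -1.86 ± 0.12, limma adjusted p = 7.54e-17). Clock was lower by a small margin (difference -0.20 ± 0.04). Rora missed the threshold (0.17 ± 0.07, adjusted p = 0.0517). Mean levels of Nr1d1 in RERE and WT were 5.44 and 5.54, those of Npas2 2.29 and 2.43, and those of Cry1 3.65 and 3.58.

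**Figure D2:**
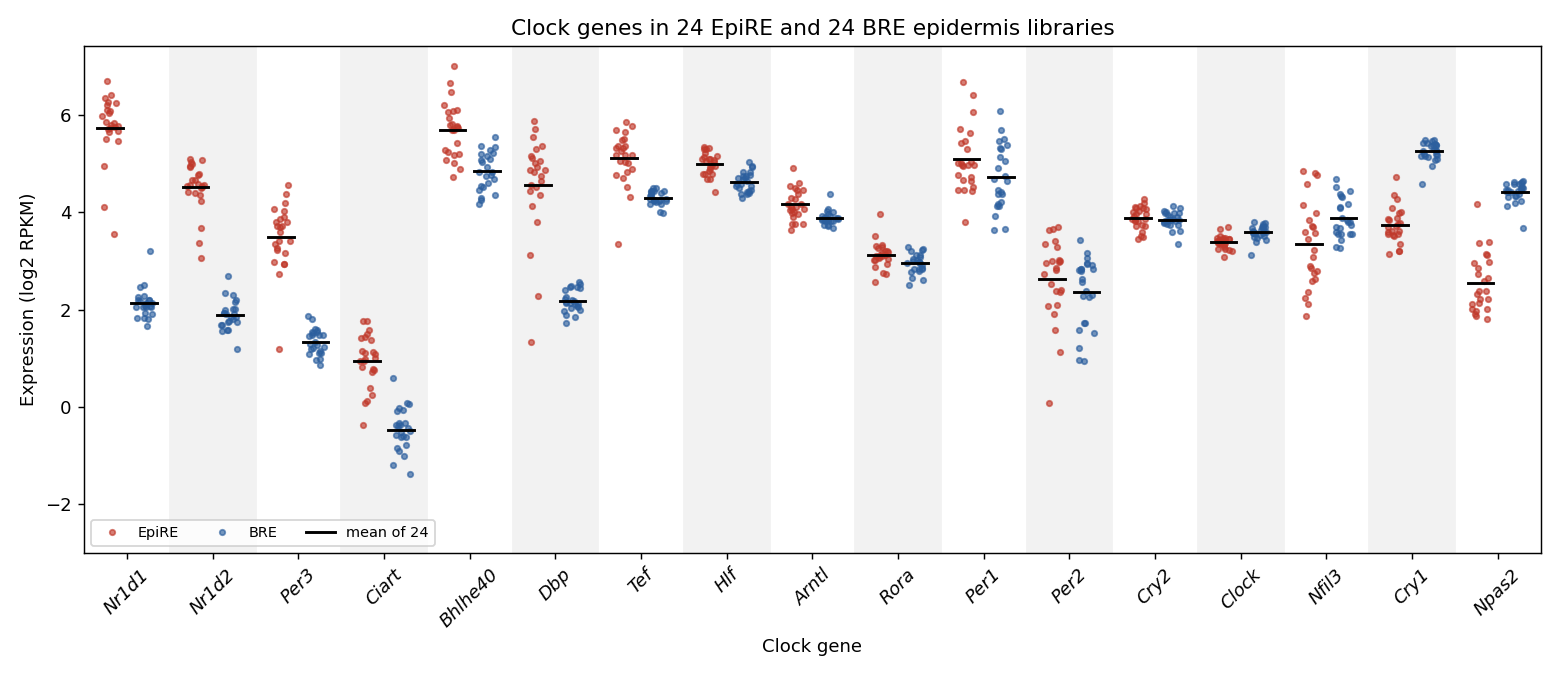
Level of 17 clock genes (log2 RPKM, y axis) in each of the 24 EpiRE (red, left of each pair) and 24 BRE libraries (blue, right), with black bars at the mean. Nr1d1 and Nr1d2 do not overlap between the genotypes. For Dbp, Per3, Npas2 and Cry1, 1 EpiRE library each lies inside the BRE range, and for Dbp 1 more lies below it.

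The regions before the RefSeq start of 4 of these genes are shown because they hold E-boxes or D-boxes: 3 E-boxes in Ciart, 1 in Tef and 1 in Cry1, whose levels differed in opposite directions, and D-boxes in Per3. Sequences are RefSeq's on GRCm38.p6 (the mm10 assembly), 250 bases 5′ to 3′ on the strand of the gene and ending at the base before the start, with the motif CACGTG (Ciart, Tef, Cry1) or TTANGTAA (Per3) in capitals. Some RefSeq starts differ from the GENCODE ones, so that the window of Tef lies inside its GENCODE span and those of Ciart and Cry1 overlap theirs in part. The windows lie at chr3:95882229-95882478 (minus strand), chr15:81802423-81802672 (plus strand), chr10:85185055-85185304 (minus strand) and chr4:151044666-151044915 (minus strand).
Ciart: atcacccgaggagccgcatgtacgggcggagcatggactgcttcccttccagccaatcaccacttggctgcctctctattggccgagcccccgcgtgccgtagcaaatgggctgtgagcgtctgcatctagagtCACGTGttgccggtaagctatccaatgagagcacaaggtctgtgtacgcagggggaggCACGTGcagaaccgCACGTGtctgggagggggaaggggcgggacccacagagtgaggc
Tef: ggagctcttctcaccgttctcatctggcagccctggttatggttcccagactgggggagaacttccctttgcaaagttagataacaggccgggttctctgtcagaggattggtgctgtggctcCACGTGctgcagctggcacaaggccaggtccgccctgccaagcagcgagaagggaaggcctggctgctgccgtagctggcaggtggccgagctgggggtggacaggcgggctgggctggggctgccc
Cry1: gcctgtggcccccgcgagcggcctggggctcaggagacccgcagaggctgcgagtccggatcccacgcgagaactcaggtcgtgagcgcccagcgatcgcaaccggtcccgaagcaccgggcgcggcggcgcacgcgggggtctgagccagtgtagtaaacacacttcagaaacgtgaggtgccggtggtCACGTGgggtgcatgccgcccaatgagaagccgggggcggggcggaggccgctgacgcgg
Per3: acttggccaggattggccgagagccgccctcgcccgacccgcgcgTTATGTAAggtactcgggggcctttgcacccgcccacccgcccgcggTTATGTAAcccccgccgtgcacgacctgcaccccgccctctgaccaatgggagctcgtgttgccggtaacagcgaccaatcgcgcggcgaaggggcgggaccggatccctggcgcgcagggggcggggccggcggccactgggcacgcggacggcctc
The E-boxes begin 116, 58 and 44 bases before the start of Ciart, 127 before that of Tef and 60 before that of Cry1. The D-boxes of Per3 begin 205 and 158 bases before it. Both strands were searched in the window from 250 bases before to 50 bases after the start, and CACGTG reads alike on both. CACGTG occurred in 12.3% of the 8633 tested genes with a sequence in the table. The share was 14.3% of 1994 genes higher in EpiRE, 9.17% of 916 genes lower in EpiRE and 12.2% of 5723 genes not called. Among genes that differed by 0.5 or more it was 11.5% of 78 higher and 6.10% of 82 lower genes. TTANGTAA occurred in 1.80% of all, 1.86% of the higher and 2.07% of the lower genes. The receptor motifs TAGGTCA and TGGGTCA occurred in 2.19% and 3.85% of all, 2.06% and 3.51% of the higher, and 2.18% and 4.26% of the lower genes. Of 15 clock genes with a sequence, Per1 also held CACGTG, and Arntl and Nfil3 held TAGGTCA. Nr1d1, Nr1d2, Dbp, Npas2, Clock, Rora, Cry2 and Hlf held none of these motifs in the window searched. No motif overlaps another in the 4 windows shown, and a match is not a measured binding site.

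The genes named next had the largest positive differences outside the clock, of genes averaging 5 RPKM or more. Cdc25b (ENSMUSG00000027330; chromosome 2, 131186949 to 131198497), a phosphatase that activates mitotic kinases, ranged from 4.22 to 5.09 in EpiRE (median 4.70) and from 2.58 to 4.41 in BRE (median 3.08). It was 2.86-fold higher in EpiRE (1.52 ± 0.09, limma adjusted p = 1.44e-18). Ngfr, the p75 neurotrophin receptor, was higher by 1.45 ± 0.13. The matrix protease gene Mmp2 was higher by 1.03 ± 0.09, and the part of fibroblasts, whose summed markers had a median of 13.5 RPKM in EpiRE and 18.6 RPKM in BRE, was not tested. Aldh3a1, an aldehyde dehydrogenase, averaged 6.50 in EpiRE and 5.57 in BRE. Ifi202b, of an interferon-inducible family with close copies whose reads may be shared, ranged from 3.64 to 5.63 in EpiRE and from 2.35 to 3.50 in BRE, without overlap. Akr1c18, a hydroxysteroid dehydrogenase (1.21 ± 0.35), Gadl1, a decarboxylase-like gene (1.20 ± 0.23), and Pyy, the peptide YY hormone (0.99 ± 0.29), were higher, and the calls of Akr1c18 and Pyy were each lost in 1 of 4 runs that left out 1 replicate number.

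Of 10 genes of the fasting response 4 were lower in EpiRE and none higher, among them the lipase inhibitor Angptl4 (-0.96 ± 0.24) and the thioesterases Acot1 (-0.40 ± 0.07) and Acot2 (-0.23 ± 0.06), which are near-identical copies. Among all genes tested 11.1% were lower. The call of Angptl4 was lost in 2 of 4 runs that left out 1 replicate number, and 3 of the 4 genes were lower in all of these runs. Pdk4, a kinase that restrains glucose oxidation, averaged 1.06 in EpiRE and 0.86 in BRE (adjusted p = 0.462), and Cpt1a, of fatty acid import, averaged 5.12 in EpiRE and 5.07 in BRE (adjusted p = 0.425). The list median was -0.08, against 0.05 for all genes tested.

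Genes with large losses outside the clock were Abhd12b (-1.43 ± 0.10), the coagulation initiator F3 (-1.37 ± 0.16), Serpina3b of a family of close copies (-1.30 ± 0.21), the transporter gene Slc46a2 (-1.16 ± 0.09), the peptide gene Calcb (-1.05 ± 0.11), the acyltransferase Mboat2 (-0.94 ± 0.09) and the lipid hydrolase Pnpla3 (-0.92 ± 0.18). The other genes without overlap, chosen after their values were seen, were smaller in part. Agpat3, a phospholipid acyltransferase, ranged from 4.58 to 5.21 in EpiRE and from 5.39 to 5.82 in BRE (difference -0.74 ± 0.04). Macf1, a cytoskeletal linker (-0.69 ± 0.05), the pyrophosphate exporter Ank (-0.57 ± 0.05), the kinase Pak3 (-0.45 ± 0.04), the interleukin receptor Il18r1 (-1.26 ± 0.07), Tmem246 (-0.62 ± 0.05) and Tmem269 (-0.85 ± 0.09) also lay lower in each EpiRE library than in any BRE library. The sulfatase gene Arsi lay higher, from 1.13 to 3.32 in EpiRE and from -1.83 to 0.86 in BRE.

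Genes of the outer epidermis were mostly lower in EpiRE than in BRE. Of 18 genes of suprabasal differentiation, 11 were lower, 2 higher and 5 not called, with a median difference of -0.33, against 11.1% lower and a median of 0.05 among all genes tested. Involucrin (Ivl), a precursor of the cornified envelope, had a median of 5.11 in EpiRE (4.40 to 6.12) and 6.06 in BRE (4.98 to 6.80), a difference of -0.77 ± 0.11 (limma adjusted p = 2.29e-07). Its mean was 5.19 in EpiRE and 5.96 in BRE, with 5.37 in RERE and 5.29 in WT. Corneodesmosin (Cdsn), which holds cornified cells together, was lower in EpiRE than in BRE by 0.74 ± 0.12, and the filaggrin relative Flg2 by 0.88 ± 0.16. Krtdap (-0.35 ± 0.05) and Sbsn (-0.36 ± 0.06), both made in differentiating keratinocytes, were lower as well. Tgm3, a transglutaminase of the cornified layer, went the other way, with means of 3.86 in EpiRE and 2.97 in BRE (0.89, adjusted p = 0.000144). The keratin Krt1 averaged 11.3 in EpiRE and 11.2 in BRE and was not called (adjusted p = 0.522), while its partner Krt10 was lower (adjusted p = 5.09e-05). Fewer suprabasal cells and less RNA per cell cannot be told apart in such bulk samples.

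Lipid genes of the barrier had the same direction. Of 14 barrier lipid genes 9 were lower and none higher, with a median of -0.15. Over all genes tested 22.9% were higher and 11.1% lower. Elovl4, which makes very long fatty acids for ceramides, had a median of 7.12 in EpiRE (6.63 to 7.41) and 7.52 in BRE (6.96 to 7.70), a difference of -0.38 ± 0.05 (limma adjusted p = 6.25e-08). Its mean was 7.09 in EpiRE and 7.47 in BRE, with 7.18 in RERE and 7.05 in WT. The lipid transporter Abca12 (-0.41 ± 0.08), the hydroxylase Cyp4f39 (-0.24 ± 0.05) and the ceramide synthase Cers3 (-0.15 ± 0.03) were lower too. The lipoxygenase Aloxe3 averaged 3.12 in EpiRE and 3.04 in BRE (adjusted p = 0.473).

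Of 19 genes of cholesterol synthesis 12 were lower and none higher, with a median of -0.24. The shares over all genes tested were 22.9% higher and 11.1% lower. Fdps, which makes farnesyl diphosphate, had a median of 6.08 in EpiRE (5.69 to 6.59) and 6.69 in BRE (6.01 to 6.96), a difference of -0.55 ± 0.07. Its mean was 6.11 in EpiRE and 6.65 in BRE, with 6.26 in RERE and 6.12 in WT. Dhcr7 (-0.31 ± 0.05), Nsdhl (-0.28 ± 0.05) and Mvk (-0.24 ± 0.04), enzymes of late and early steps, followed. Hmgcs1, of an early step (-0.07, adjusted p = 0.201), and the feedback gene Insig1 (0.01, adjusted p = 0.957) were not called. In all of 4 runs that each left out 1 replicate number, all 11 lower suprabasal genes, 6 of 9 barrier lipid genes and 8 of 12 cholesterol genes were called. Without the 2 EpiRE libraries that stood apart the counts of lower genes were again 11, 9 and 12.

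**Figure D3:**
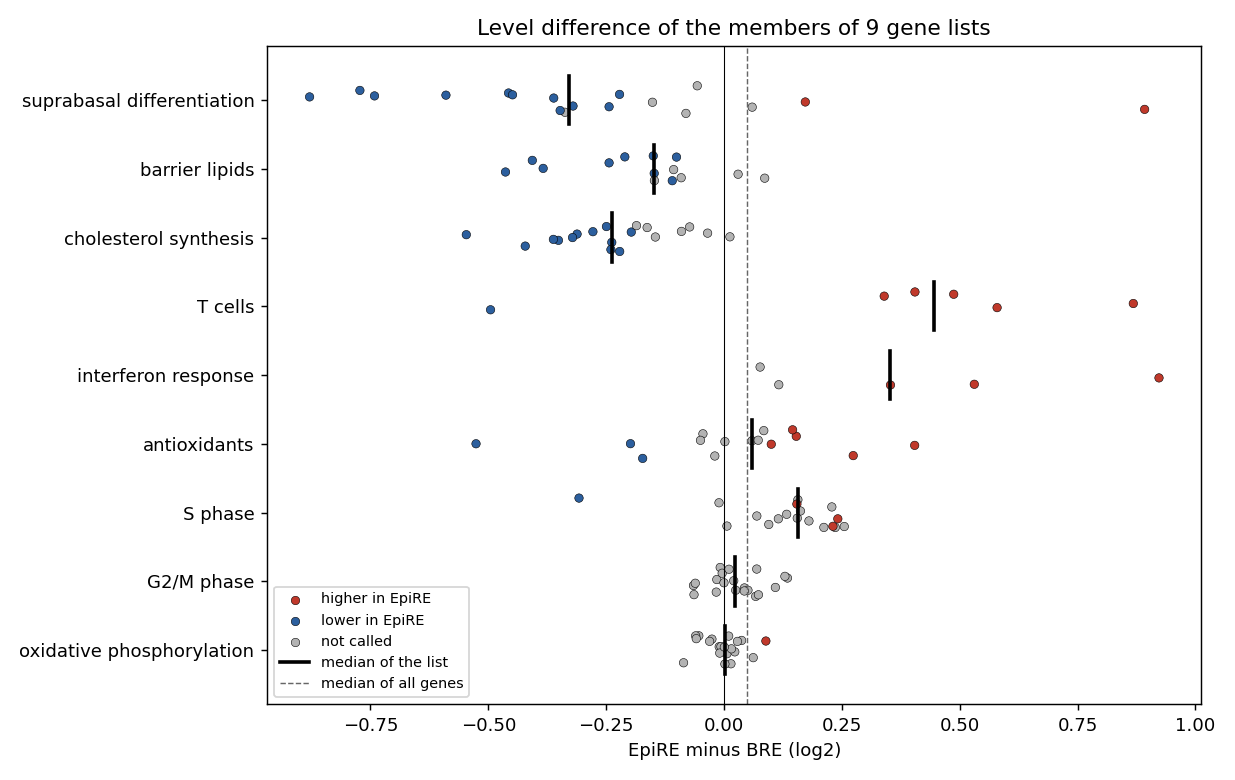
Differences of EpiRE and BRE (log2, x axis) of the tested members of 9 gene lists (rows), 1 dot per gene, red where higher and blue where lower in EpiRE and grey where not called. List medians (black bars) lie at -0.33 for suprabasal differentiation and at 0.45 for T cells, against a dashed line at 0.05 for all genes.

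Markers of basal keratinocytes did not share this direction: 2 of 13 were higher, 3 lower and 8 not called. Among all genes tested the shares were 22.9% higher and 11.1% lower. Krt15 was higher (0.26 ± 0.05) and Col17a1 was higher (0.16 ± 0.04), both expressed in the basal layer, while the laminin gene Lama3 (-0.17 ± 0.04) was lower. The summed suprabasal markers had a median of 14113 RPKM in EpiRE (9692 to 17061) and 16858 RPKM in BRE (12032 to 20113). The median was 13542 RPKM in WT and 14548 RPKM in RERE, both nearer to EpiRE than to BRE.

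Immune markers were higher in part. Of 6 T cell markers 5 were higher and 1 lower, with a median of 0.45. Among all genes tested 22.9% were higher and 11.1% lower. Cd3e, a chain of the T cell receptor complex, had a median of 3.04 in EpiRE (1.88 to 3.84) and 2.45 in BRE (1.56 to 3.03), a difference of 0.58 ± 0.12 (limma adjusted p = 0.000205). Cd3g (0.49 ± 0.12) and the chemokine gene Xcl1 (0.87 ± 0.21) were higher too. Thy1, carried by dendritic epidermal T cells and other cells, was lower (-0.50 ± 0.13). The summed level of the 6 markers ran from 32.7 to 155 RPKM in EpiRE (median 75.8) and from 52.8 to 120 RPKM in BRE (median 77.0). The part of T cell number in these differences was not tested. Without the 2 EpiRE libraries that stood apart 4 markers were higher and 1 lower. Of 10 Langerhans and myeloid markers Cd52 alone was called (0.34 ± 0.12, adjusted p = 0.0302), with sums of 146 to 334 RPKM in EpiRE and 135 to 338 RPKM in BRE. The Cd52 call was lost under median-of-ratios scaling (adjusted p = 0.0672), without the 2 EpiRE libraries that stood apart (adjusted p = 0.0625) and in 2 of 4 runs that left out 1 replicate number.

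Of 5 tested interferon response genes 3 were higher: the virus-tethering protein gene Bst2 (0.92 ± 0.14), Ifi27l2a (0.53 ± 0.12) and the regulator Irf7 (0.35 ± 0.12, limma adjusted p = 0.0172). Over all genes tested the share of higher genes was 22.9%. Isg15 averaged 1.52 in EpiRE and 1.45 in BRE (adjusted p = 0.689). The fibroblast marker Sparc, the 1 member of its list that was tested, was lower (-0.50 ± 0.08). Among other markers, Pmel of melanocytes (0.38 ± 0.09), Tchh of the hair shaft (0.36 ± 0.07) and Krt79 of the hair follicle (-0.29 ± 0.10) were called.

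Antioxidant genes differed in both directions, with 5 of 15 higher and 3 lower. Prdx6, a peroxiredoxin, had a median of 6.27 in EpiRE (5.84 to 6.49) and 5.87 in BRE (5.65 to 6.15), a difference of 0.40 ± 0.03 (limma adjusted p = 2.02e-12). Sod2, the mitochondrial superoxide dismutase, was higher by 0.27 ± 0.03 and the quinone reductase Nqo1 was lower (-0.53 ± 0.09). Of 14 glycolysis genes 3 were higher, among them the glucose transporter Slc2a1 (0.29 ± 0.06), and 4 were lower, among them Eno1 (-0.18 ± 0.05) and Ldha (-0.15 ± 0.04), against 22.9% higher and 11.1% lower among all genes. None of the 4 lower genes was called in all 4 runs that left out 1 replicate number, and Eno1 and Ldha were each called in 3.

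Few cell cycle genes were called, against 34.0% called among all genes tested (22.9% higher and 11.1% lower). None of 20 G2/M genes was called, with Aurka nearest at 0.11 ± 0.11 (adjusted p = 0.481). Of 18 S phase genes 3 were higher and 1 lower, with Slbp at 0.23 ± 0.07, Mcm6 at 0.24 ± 0.08, Pcna at 0.15 ± 0.06 and Rrm2 at -0.31 ± 0.10, and none of the 4 was called in all 4 such runs. Of 20 oxidative phosphorylation genes Ndufv1 alone was called (0.09 ± 0.03), and under median-of-ratios scaling 4 genes were lower and none higher. None of 12 immediate early genes, which dissociation of tissue can raise, passed (Junb 0.24 ± 0.10, adjusted p = 0.0559). Of 13 genes of the unfolded protein response the stress factor gene Ddit3 was higher (0.26 ± 0.06), and of 9 hypoxia genes the oxygen sensor Egln3 was higher (0.40 ± 0.12) and Ndufa4l2 lower (-0.39 ± 0.11). Of 8 fatty acid and sebaceous genes the elongase Elovl6 (-0.32 ± 0.09) and the carboxylase Acaca (-0.14 ± 0.05) were lower. The muscle gene Mylpf (-0.01 ± 0.10) and the globin gene Hbb-bs (-0.22 ± 0.51) were not called, and no endothelial or adipocyte marker reached the level for testing. Among the called list members named in the text, Lama3, Irf7, Krt79, Egln3, Acaca, Sgk1, Bag3, Ndufa4l2, Elovl6 and Ndufv1 also lost their call in at least 1 of the 4 runs.

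Of 11 further clock output genes 4 were higher and 3 lower. The shares over all genes tested, 22.9% higher and 11.1% lower, are the background for this list and those that follow. Ttc9 had a median of 1.03 in EpiRE (0.51 to 2.17) and 2.71 in BRE (2.12 to 3.01), a 2.97-fold lower level in EpiRE, with an overlap of ranges between 2.12 and 2.17. The pyridoxal kinase Pdxk was higher (0.55 ± 0.07), and the tyrosine breakdown enzyme Fah (-0.44 ± 0.08) and the transcription factor subunit Leo1 (-0.24 ± 0.05) were lower. Of 11 glucocorticoid response genes Klf9, a hormone-induced transcription factor (0.53 ± 0.11), and the kinase Sgk1 (0.30 ± 0.08) were higher. Of 8 retinoid genes Rdh12 (-0.37 ± 0.03) and Crabp2 (-0.31 ± 0.07) were lower and Rara (0.15 ± 0.04) was higher. Heat shock genes gave 1 higher and 2 lower of 14, with Bag3 at 0.28 ± 0.08, Hspb1 at -0.31 ± 0.06 and Hspa1b, which has a near-identical copy, at -0.19 ± 0.05. Of the genes next to Arntl on chromosome 7, 5 of 10 were lower, led by Rras2 (-0.43 ± 0.05), against 11.1% lower among all genes tested. Of the 5, 1 was lower in all 4 runs that left out 1 replicate number, and 4 neighbours were lower without the 2 EpiRE libraries that stood apart. Genes called in either direction made up 34.9% of chromosome 7, against 34.0% of all.

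Level calls were also set against the time at which each gene peaked in WT, whose 24 libraries entered neither group. Of the genes tested, 3651 fitted a 24 h rhythm in WT at an adjusted p under 0.05. Of 494 that peaked from CT8 to CT12, 247 (50%) were higher in EpiRE and 10 (2.02%) lower. Of 592 that peaked from CT20 to CT24, 36 (6.08%) were higher and 178 (30.1%) lower. Genes peaking from CT4 to CT8 and from CT12 to CT16 leaned to the higher side (31.1% and 33.0% higher), and those peaking from CT0 to CT4 and from CT16 to CT20 had 11.3% and 15.2% higher and 15.8% and 17.4% lower. Among genes with a WT amplitude of 0.5 or more, 23 of 37 peaking from CT8 to CT12 were higher and 0 lower. In that subset 13 of 82 peaking from CT20 to CT24 were lower (15.9%) and 3 higher, with a median difference of 0.03, and 9 of 32 peaking from CT0 to CT4 were lower (28.1%). The lower share from CT20 to CT24 was thus smaller there than over all rhythmic genes. Among 7351 genes without a called WT rhythm 22.3% were higher and 10.0% lower, close to the 22.9% and 11.1% of all genes.

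**Figure D4:**
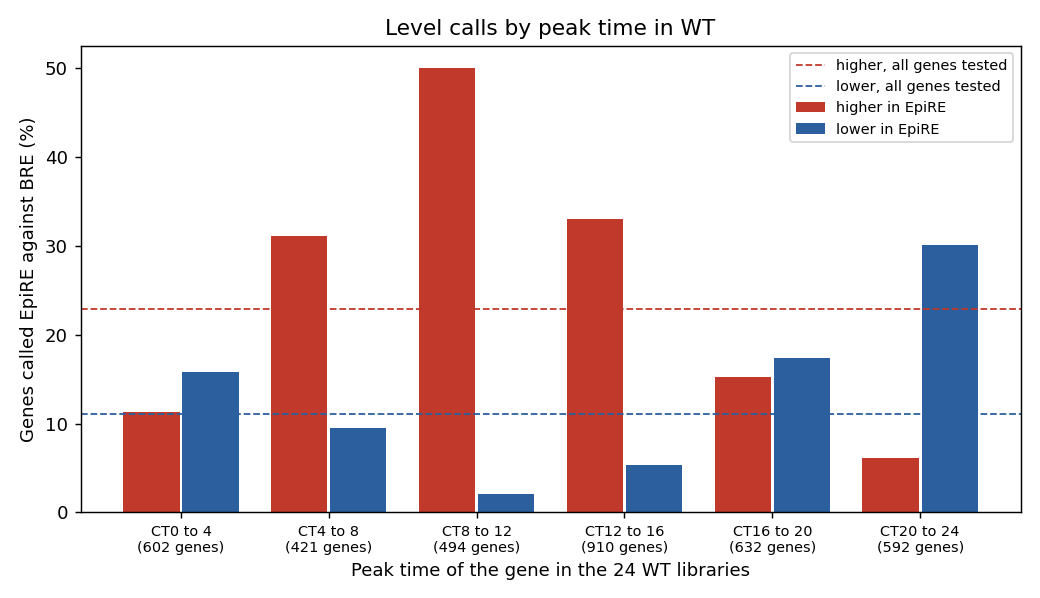
Percentage of genes higher (red, left) and lower (blue, right) in EpiRE (y axis), by the peak time of the gene in WT (x axis), for the 3651 genes rhythmic in WT. Bars reach 50% higher for peaks from CT8 to CT12 and 30.1% lower for peaks from CT20 to CT24, and dashed lines give 22.9% and 11.1% over all genes tested.

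The clock genes are among the genes of those bins. Nr1d1 peaked at CT 7.11 in WT, Nr1d2 at CT 9.27, Dbp at CT 9.39 and Per3 at CT 11.2, while Npas2 peaked at CT 22.5. Cry1, lower in EpiRE, peaked at CT 17.0. Arntl, higher in EpiRE, peaked at CT 21.9 in WT.

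Whether the difference of EpiRE and BRE changed with time was tested as the interaction of genotype and CT. By limma's moderated F test 3 of 11002 genes (0.0273%) passed, against 1275 at an unadjusted p under 0.05, and limma-voom called 2. Cd24a (ENSMUSG00000047139; chromosome 10, 43578284 to 43584265), a surface glycoprotein gene of epithelial and blood cells, had an adjusted p of 0.00463. At CT16 it averaged 4.77 ± 0.19 in EpiRE and 5.51 ± 0.02 in BRE (SD, n = 4 each), a difference of -0.74, while at the other times the difference lay between -0.19 and 0.12. Hsp90aa1 (ENSMUSG00000021270; chromosome 12, 110690605 to 110702728), the inducible HSP90 chaperone, had an adjusted p of 0.0144. It was 0.40, 0.26 and 0.34 above BRE at CT0, CT4 and CT8, and its difference was -0.36, -0.47 and -0.07 at CT12, CT16 and CT20. The call of Cd24a was lost without replicate 2, 3 or 4 (adjusted p = 0.515, 0.521 and 0.0825), and that of Hsp90aa1 without any 1 of the 4 (adjusted p = 0.0671 to 0.696).

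Mir18 (ENSMUSG00000065403; chromosome 14, 115043851 to 115043946) passed with an adjusted p of 0.0461, from a difference at CT12 of 3.98. It rested on 0 to 12 reads per library, with 4, 5, 7 and 8 reads in EpiRE and 0, 0, 0 and 1 in BRE at CT12, and limma-voom did not call it (adjusted p = 0.227). The 7 genes next in order, Selenop, Abcc4, Sh2b3, Avpr1a, Twsg1, Pcdhgb6 and Fam213a, all had an adjusted p of 0.239. The replicate block joined the EpiRE and the BRE library of the same time and replicate number. With it no gene passed (limma adjusted p = 0.0848 for Cd24a and Hsp90aa1). A 24 h cosine and sine in place of the 6 times gave 0 genes as well, with 941 at an unadjusted p under 0.05. Without the EpiRE library of CT0 replicate 4 the count was 20, and without the BRE library of CT16 replicate 2 it was 1. It was 3 without the 2 libraries that stood apart, 2 of them among the 3 named above.

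No clock gene passed the interaction test, where the smallest adjusted p was 0.349 and 4 of 18 had an unadjusted p under 0.05. Values at single times are therefore given as a description (interaction adjusted p = 0.466 for Nr1d1, 0.458 for Dbp and 0.436 for Npas2). The difference of Nr1d1 was 4.09 at CT4 and 2.72 at CT20. Dbp averaged 3.58 ± 1.51 in EpiRE and 2.29 ± 0.22 in BRE at CT0, and 4.99 ± 0.28 in EpiRE and 1.87 ± 0.11 in BRE at CT12 (SD, n = 4 each). Npas2 averaged 3.30 ± 0.58 in EpiRE and 4.44 ± 0.06 in BRE at CT0, and 2.30 ± 0.28 in EpiRE and 4.50 ± 0.12 in BRE at CT8. Within EpiRE the authors' deposited table of BIOCYCLE q-values held 0 genes under 0.05, as did that for BRE, and the JTK_CYCLE tables held 0 for EpiRE and 3 for BRE.

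**Figure D5:**
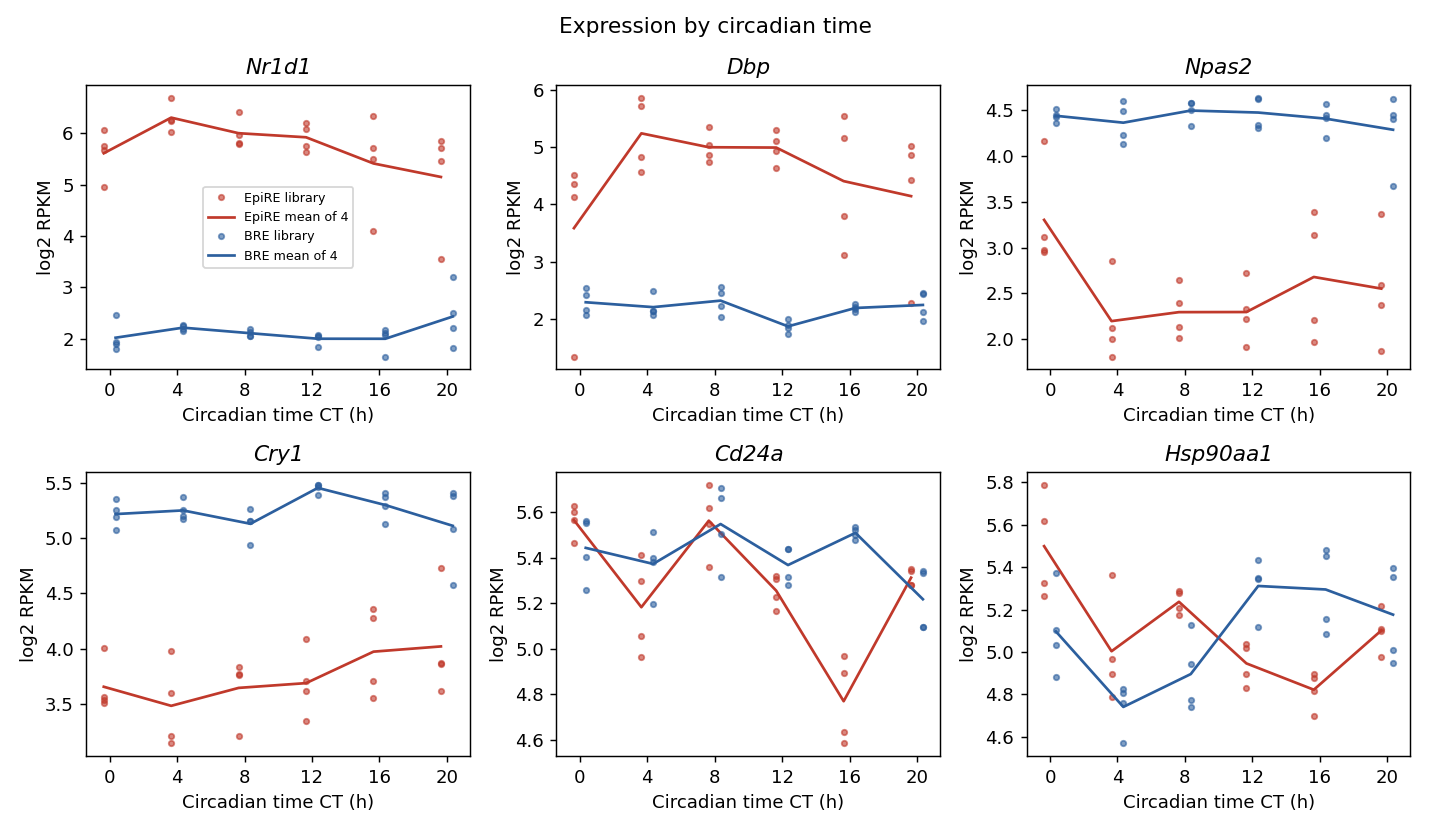
Level (log2 RPKM, y axes) of 6 genes by circadian time (x axes) in EpiRE (red) and BRE (blue), with 1 point per library and lines through the means of 4. For Dbp, 1 EpiRE library at CT0 lies at 1.34, below the BRE libraries, and 1 at CT20 lies at 2.27, among them. The other EpiRE libraries of these times lie above BRE. Cd24a in EpiRE dips to a mean of 4.77 at CT16.

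The spread between libraries of the same genotype and time was compared by the absolute deviation of each library from its group mean. By limma 2 of 11002 genes (0.0182%) were called, both with a larger spread in EpiRE, and 1004 genes had a larger and 319 a smaller spread in EpiRE at an unadjusted p under 0.05. Dbp had a pooled SD within time of 0.98 in EpiRE and 0.19 in BRE (deviation larger by 0.60 ± 0.11, adjusted p = 0.00258). Tef had 0.45 in EpiRE and 0.14 in BRE (adjusted p = 0.0400). Neither passed when deviations were taken from the group median (adjusted p = 0.912 each), and Tef did not pass with the replicate block (adjusted p = 0.0577).

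Of the 18 clock genes 17 had a larger spread in EpiRE, with a median ratio of the SDs of 1.54, and 10 had an unadjusted p under 0.05 with 2 called. Npas2 had an SD of 0.52 in EpiRE and 0.22 in BRE (adjusted p = 0.0751) and Cry1 one of 0.36 in EpiRE and 0.19 in BRE (adjusted p = 0.0751). Outside the clock the next genes were Snord118, Pgap1, Tm2d2, Rlf, Actb and Mtmr9, with adjusted p-values of 0.0600 to 0.0751. Over all genes tested 62.9% had a larger spread in EpiRE, with a median ratio of 1.12. Without the 2 EpiRE libraries that stood apart this share was 45.3%, so the direction over all genes turned, while Dbp (adjusted p = 0.000247) and Tef (adjusted p = 0.000782) were called without them.

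Clock gene levels of single EpiRE libraries were set against the range of the 24 BRE libraries as a description. The 14 clock genes used were called on these same values, so the counts are no further test of a difference. Of these genes, single EpiRE libraries had 1 to 8 inside the BRE range, and 21 of 24 had 4 or fewer. Values beyond that range on either side were not counted as inside it. The library of CT20 replicate 1 had 8, among them Dbp at 2.27 and Cry1 at 4.73, with Nr1d1 at 3.56. The library of CT0 replicate 3 had 6, among them Npas2 at 4.17 and Per3 at 1.20. Its Dbp at 1.34 and Tef at 3.355 lay below every BRE library, although both genes were higher in EpiRE by their means. Over all genes the library of CT0 replicate 3 lay at 3 median absolute deviations, at the limit above which a library was counted as standing apart, and was the third farthest of EpiRE. That of CT20 replicate 1 was under this limit. By gene, 0 EpiRE libraries fell inside the BRE range for Nr1d1 and Nr1d2, 1 each for Npas2, Per3, Cry1, Dbp and Tef, 5 for Ciart, 9 for Bhlhe40 and Nfil3, 11 for Hlf, 17 for Arntl and 23 for Clock.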

How the data were processed

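Polyadenylated RNA of 48 epidermis libraries (24 EpiRE, 24 BRE) was analysed from the BIOCYCLE tables, whose column names give CT and replicate. Per the submitters' processing notes the authors used featureCounts 1.6.0 and edgeR (version not given), with reads trimmed by Trimmomatic 0.36 and aligned to mm10 by HISAT2 2.2.1, and SAMtools 1.3.1. The deposited values are log2 RPKM made by the authors, and the deposited q-values of both rhythm programs were only counted. The sources used here do not say whether molecular identifiers or strand entered the counting, so genes with close copies, overlapping genes and antisense partners are uncertain. The 96 library columns of the JTK_CYCLE tables, whose codes match no label, were not used.

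Whole reads were recovered for 22474 of 22497 genes, with 100.0% of values within 0.1 read of a whole number, for depth and limma-voom (the other 23 genes have no voom value). Labels name the 4 samples of a group as separate mice. Genes whose mean log2 RPKM over the 48 libraries was 0 or more were tested with limma 3.58.1 in R 4.3.3 (moderated tests with a mean trend, two-sided, F test for the interaction), with Benjamini-Hochberg adjustment and a threshold of 0.05. Level was the genotype term beside CT, interaction the genotype by CT term (5 degrees of freedom), and spread the genotype term on absolute deviations from group means. Tests were checked on simulated data. Errors of differences are SE. WT rhythm was a cosine and sine fit of 24 h. Coordinates are GENCODE M21 (mm10), matched by identifier.

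Members and the 33 gene lists were chosen with earlier results of these data known. Named were, among called genes of at least 5 RPKM with established names, the 12 largest differences each way, all tested clock genes, up to 4 called members of each other list by p, 1 member where none was called, and 10 genes by p for interaction and for spread. Further list members are named as examples. A few genes that this rule names are not reported here.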

Additional observations from a re-analysis of the deposited data

Results flagged for a closer look

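Among the 6 genes whose values by time were examined, 72 groups of 4 libraries were checked for a library far from the other 3, and 6 were found. Chance gives about 1 in 20 for genes chosen without regard to their values. These genes were named for their values in the same libraries, so that rate is no measure for them. In EpiRE, Dbp at CT0 had 1 library at 1.34 and Npas2 at CT0 had 1 at 4.17, both of replicate 3, and Nr1d1 at CT20 had 1 at 3.56, of replicate 1. Nr1d1 at CT12 in BRE had 1 library at 1.84. Mir18 had 1 library at 0.933 at CT4 in EpiRE and 1 at -0.0349 at CT12 in BRE, where the other 3 had 0 reads.

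The difference of EpiRE and BRE was called as changing with CT, by the interaction test of limma, for Cd24a (adjusted p = 0.00463), Hsp90aa1 (adjusted p = 0.0144) and Mir18 (adjusted p = 0.0461). None of these calls held with the replicate block or with a 24 h cosine and sine. Each was also lost in some of the runs that left out a replicate number, and Mir18 rested on few reads.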

How the results depend on the processing

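The count of level calls (3737) stayed within 1.5 times under every alternative run: 3272 with median-of-ratios scaling, 3485 at a mean of at least 2 RPKM, 3875 without a filter, 3757 on log2(RPKM + 1), 3793 by limma-voom, 4797 with library weights, 4002 with the spread shared over 96 libraries, 3521 without CT, 4170 without the 2 libraries that stood apart (an alternative chosen after seeing the data), and 2631 to 4252 over omissions of replicates or libraries. With the replicate block it was 3675. The genes behind the count changed more: 1847 of the 3737 (49.4%) were called in all 4 runs that left out 1 replicate number. Under median-of-ratios scaling 2762 of them were called. Same-numbered libraries of a time correlated from -0.18 to 0.38 (median 0.03), 8 of 24 pairs above 0.1, and 10 of 24 correlated best with their own number. No chance level was computed for these values, so they cannot settle whether the numbers pair the mice. The interaction count of 3 became 0 with a 24 h cosine and sine, 484 with library weights, 0 with the replicate block, and 0 to 20 over omissions. The spread count of 2 became 0 with deviations from the median, 6 on log2(RPKM + 1), 4 with median-of-ratios scaling, 357 without a filter (216 larger in EpiRE), 1 with the replicate block, 13 without the libraries that stood apart, and 1 to 138 over omissions, where 29 of 48 single libraries moved it by over 1.5 times. The cause of these shifts was not tested.

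Of the genes named for level, those that reversed were uncalled throughout: Mylpf (-0.10 to 0.11 over omissions of 1 replicate number, with 0.02 without replicate 2, and 0.11 without replicate 4) and Hbb-bs (0.18 by limma-voom). In 57 combinations of gene and setting a level call was lost and in 8 one was gained, and 1493 kept direction and call. Genes of few reads, such as Mir18, are limited by depth.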
